A study of Rattus norvegicus with 15 samples.

Results

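The genes described here are the neurotrophins Bdnf and Ntf3 and the neurotrophin receptors Ntrk2, Ntrk3 and Ngfr. They were chosen by symbol, taking every RefSeq transcript record that carried one of the 5 symbols. This gave 20 of the 18278 records in the count tables and 5 of the 16397 symbols with a record. Bdnf had 10 records, Ntf3 had 4, Ntrk3 had 3, Ntrk2 had 2 and Ngfr had 1.

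The read counts came from rats whose vagus nerve, the cranial nerve that links the viscera with the brainstem, was stimulated through an implanted device (VNS) for 30 min on each of 4 days. Control rats carried a sham device. From hippocampus there were 4 VNS and 3 control libraries of ribosome-depleted total RNA, and on days 2 to 4 these rats were also given a novelty preference task of 10 min. From cortex there were 4 VNS and 4 control libraries of polyA-selected RNA. Rats of both groups were killed directly after the stimulation or sham period of day 4. The labels used here do not tie libraries to litters, cages or days, so p-values measure the spread between these libraries. The comparison asked whether VNS rats differed from sham rats in each tissue.

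Neurotrophins are secreted growth factors of neurons. Brain-derived neurotrophic factor, encoded by Bdnf, binds the receptor tyrosine kinase TrkB, encoded by Ntrk2, and in the hippocampus this pair is known for its part in synaptic plasticity and memory. Neurotrophin 3, encoded by Ntf3, binds mainly TrkC, encoded by Ntrk3. All neurotrophins and their uncleaved precursors bind the p75 receptor, encoded by Ngfr, which in the adult forebrain marks cholinergic neurons of the basal forebrain. Bdnf is transcribed from several promoters, each with a leading exon of its own that is spliced to a shared coding exon. The promoter of the fourth leading exon in rodents is known to respond to neuronal activity through CREB, a transcription factor that binds TGACGTCA and its shorter core CGTCA.

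Counting in the deposited tables was per transcript record, and a read that touched more than 1 record was not assigned to any. A Bdnf count therefore reports a read from bases found in 1 record only, which lay outside the shared coding exon. They lay in leading exons, apart from 71 bases of NM_001270634 in an internal exon. The 10 Bdnf records begin at 8 start sites on rat chromosome 3, forward strand (rn5), and all end at base 107421906. Start 1 belongs to NM_012513, whose leading exon spans chr3:107371329-107371967. Start 4 belongs to NM_001270633, with its leading exon at chr3:107389554-107389893, and start 6 to NM_001270630, with its leading exon at chr3:107390648-107390995. These leading exons, with 639, 340 and 348 bases of their own, took most of the gene's counts. In hippocampus start 1 was the site whose groups did not overlap, and start 4 has the promoter named above for its response to neuronal activity. The promoters of starts 1 and 4 are therefore shown. They run from 250 bases before to 50 bases after the start in RefSeq's assembly GRCr8 (chr3:116619383-116619682 and chr3:116637608-116637907, forward strand), and capitals mark CGTCA.
Bdnf start 1: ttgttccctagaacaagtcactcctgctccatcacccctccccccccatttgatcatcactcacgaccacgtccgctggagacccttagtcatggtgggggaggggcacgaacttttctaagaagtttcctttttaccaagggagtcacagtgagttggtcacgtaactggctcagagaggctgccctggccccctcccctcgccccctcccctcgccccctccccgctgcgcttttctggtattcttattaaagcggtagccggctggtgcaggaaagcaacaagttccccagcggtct
Bdnf start 4: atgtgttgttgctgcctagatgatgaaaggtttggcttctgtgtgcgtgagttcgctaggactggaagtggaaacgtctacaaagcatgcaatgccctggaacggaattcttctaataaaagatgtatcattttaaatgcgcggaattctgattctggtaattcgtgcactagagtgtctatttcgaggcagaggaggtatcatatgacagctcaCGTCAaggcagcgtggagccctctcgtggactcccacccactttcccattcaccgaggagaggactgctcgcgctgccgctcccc

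CGTCA, searched on both strands as CGTCA or TGACG, was present in 21.2% of all 33469 RefSeq rat promoters of this length. Of the 6 Bdnf promoters examined, those of starts 1 to 4, 7 and 8, it was present in 1, at start 4, with its first base 35 bases before the start. The promoters of starts 5 and 6 were not examined here. TGACGTCA, of which CGTCA is a part, was in 1.83% of all promoters and in 0 of the 6. CACGTG, an E-box that reads the same on both strands, was in 6.42% of all promoters and in 1 of the 6, at start 2. A match of letters is a description of the window and not a binding site.

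Library composition differed within the hippocampal groups. Totals were 16728486 to 51463555 counts in VNS libraries and 34649991 to 39773553 in control libraries. VNS 3 had 74.3% of its counts in ribosomal and 7SL RNA records, which left 4301901 counts. In that library 3 counts corresponded to 0.610 CPM (counts scaled to a common TMM library size), against 0.0444 to 0.146 CPM in the other hippocampal libraries. Controls 1 and 2 stood apart from the other 5 hippocampal libraries in genes of forebrain excitatory neurons. The 9 such markers with a record summed to 1534 to 2406 CPM in VNS libraries, against 342.6, 79.5 and 1690 CPM in controls 1, 2 and 3. Neurod6, a transcription factor of cortical and hippocampal pyramidal neurons, had 207.4, 58.9, 125.0 and 105.4 CPM in VNS libraries 1 to 4, against 0.652, 1.05 and 81.4 CPM in controls 1, 2 and 3. The 8 thalamic and brainstem markers with a record summed to 21.9 to 138.3 CPM in VNS libraries, against 1369, 435.0 and 57.1 CPM in controls 1, 2 and 3. Controls 1 and 2 thus went against the hippocampal label in these markers, and the fold change of each tested member is also given without them. That setting keeps 1 control library, so its spread comes from the 4 VNS libraries alone, the lone control is assumed to vary like them, and its SE and p-values have no control replicate behind them. In tissue libraries, fewer cells of a type and less RNA per cell cannot be told apart.

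In hippocampus 4 of the 5 genes had enough counts to be tested, and 0 of the 4 passed an adjusted p of 0.05 in edgeR's quasi-likelihood test. Across all 12626 symbols tested, 0 passed as well (0%), while 12.1% had an unadjusted p under 0.05. That count of 0 depended on control 3, since 1359 symbols passed without it, 796 higher and 563 lower in VNS, with no member among them. DESeq2 called 15 symbols and limma-voom 0, with no member among them. None of the 4 genes had an unadjusted p under 0.05 in edgeR, and Bdnf had one in the other tools. Bdnf, Ntrk2 and Ntrk3 had higher means in VNS hippocampus, and Ngfr had a lower mean. The difference of means was smaller than the larger group SD for Ntrk2, Ntrk3 and Ngfr, and larger than both group SDs for Bdnf. The median log2 fold change (VNS over control) was 0.59 over the 4 genes and -0.01 over all symbols.

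**Figure D1:**
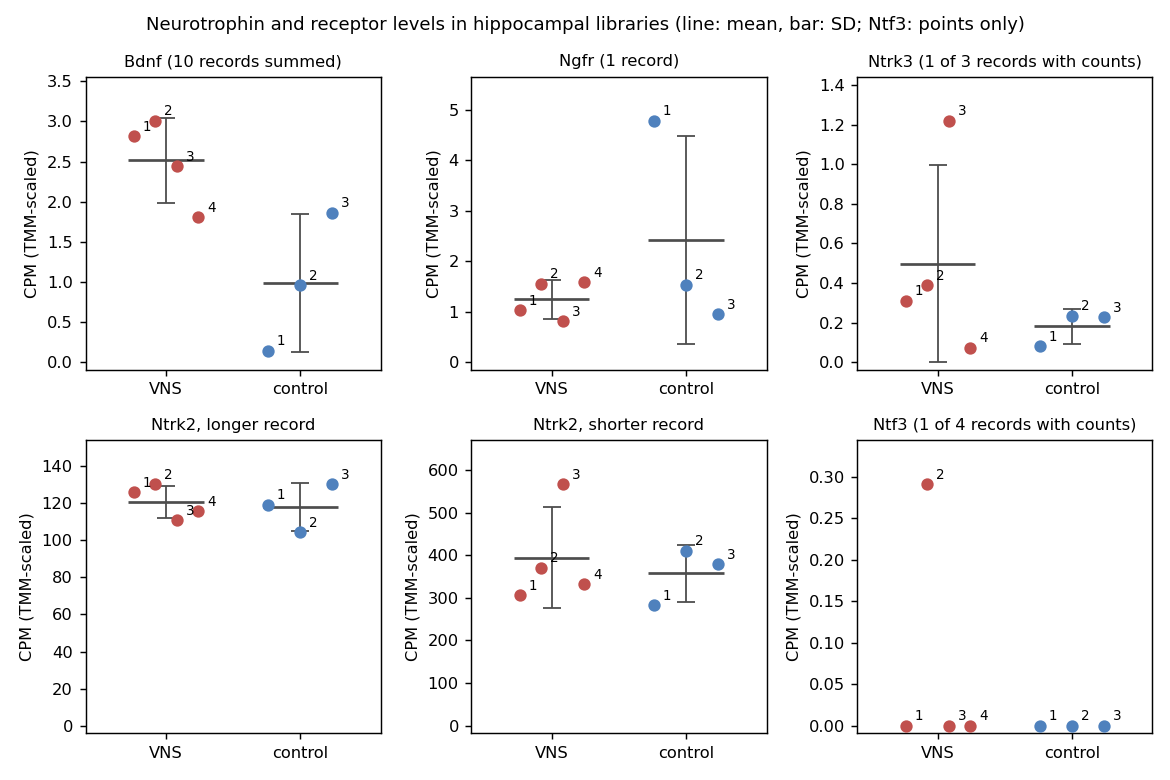
Levels of the 5 genes in the 7 hippocampal libraries, in CPM on the vertical axis, with VNS left of control; each point is 1 library with its number, lines are group means and bars are SD. VNS and control points overlap in every panel, for Bdnf only in VNS 4 at 1.81 CPM and control 3 at 1.86 CPM.

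Bdnf, summed over its 10 records, had 190, 62, 12 and 73 counts in VNS libraries 1 to 4, against 7, 53 and 90 counts in controls 1, 2 and 3. As CPM these were 2.81, 3.01, 2.44 and 1.81 in VNS hippocampus, against 0.143, 0.960 and 1.86 in control hippocampus. The 3 highest values were VNS libraries, and the groups overlapped only in that VNS 4 lay just under control 3. Bdnf averaged 2.52 ± 0.53 CPM in VNS hippocampus (SD, n = 4) and 0.989 ± 0.861 CPM in control hippocampus (SD, n = 3). The log2 fold change was 1.35 (SE 0.69, edgeR adjusted p = 0.42, unadjusted p = 0.087), which did not pass the threshold. DESeq2 gave an unadjusted p of 0.047 and an adjusted p of 0.31, and limma-voom, with a log2 fold change of 1.92, gave an unadjusted p of 0.027 and an adjusted p of 0.33.

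This value depended on single control libraries. The log2 fold change was 0.84 (SE 0.42, edgeR adjusted p = 0.75) without control 1, 2.18 (SE 0.70, edgeR adjusted p = 0.087) without control 3, and 0.42 (SE 0.48, edgeR adjusted p = 0.99996) without controls 1 and 2. Leaving out any VNS library kept it between 1.24 and 1.49. Control 1, with the lowest Bdnf value, and control 2 were also the lowest in the forebrain excitatory neuron markers, and control 3 was within the range of the VNS libraries in both. The part of these markers in the Bdnf difference was not tested. Beside control 3, the only control with forebrain marker levels in the range of the VNS libraries, VNS 1, 2 and 3 had higher Bdnf CPM and VNS 4 a lower one.

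**Figure D2:**
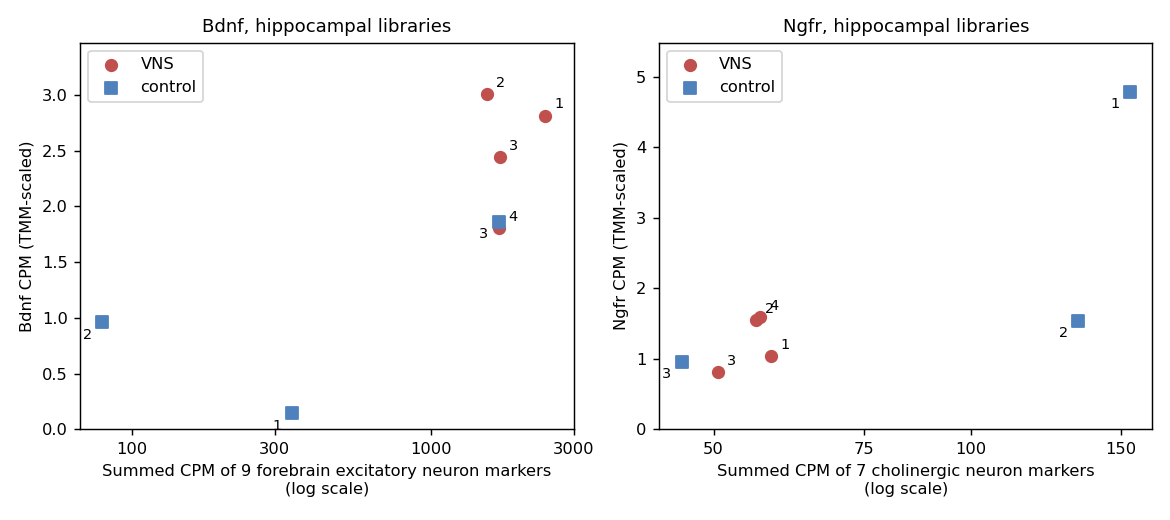
Bdnf CPM against the summed CPM of 9 forebrain excitatory neuron markers (left) and Ngfr CPM against the summed CPM of 7 cholinergic neuron markers (right), both with a log horizontal axis; each point is 1 hippocampal library with its number. In the left panel controls 1 and 2 lie apart at 342.6 and 79.5 CPM of marker, and in the right panel control 1 lies apart at 4.79 CPM of Ngfr.

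Among the Bdnf start sites, start 1 was the only one whose groups did not overlap. NM_012513 had 60, 7, 4 and 18 counts in VNS libraries 1 to 4, against 2, 16 and 12 counts in controls 1, 2 and 3. As CPM these were 0.889, 0.340, 0.813 and 0.446 in VNS hippocampus, against 0.0407, 0.290 and 0.249 in control hippocampus, so that every VNS library was above every control. Across all 12728 records tested, 9.28% had groups that did not overlap, and 4.67% did so with VNS higher. The means were 0.622 ± 0.270 CPM in VNS hippocampus (n = 4) and 0.193 ± 0.134 CPM in control hippocampus (SD, n = 3), with a log2 fold change of 1.64 (SE 0.71, edgeR adjusted p = 0.40, unadjusted p = 0.051). It was 1.27 (SE 0.99, edgeR adjusted p = 0.99995) without controls 1 and 2, and its range over the alternatives run was 1.17 to 2.05. The margin was narrow, since VNS 2 and control 2 lay at 0.340 and 0.290 CPM on 7 and 16 counts.

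Start 4, downstream of the promoter with CGTCA, had 59, 12, 6 and 19 counts of NM_001270633 in VNS libraries 1 to 4, against 2, 13 and 37 counts in controls 1, 2 and 3. This gave 0.874, 0.583, 1.22 and 0.471 CPM in VNS hippocampus, against 0.0407, 0.236 and 0.766 CPM in control hippocampus. Control 3 lay among the VNS libraries, and controls 1 and 2 lay under all of them. At this start the log2 fold change was 1.09 (SE 0.84, edgeR adjusted p = 0.54), and it was 0.57 without control 1 and 2.37 (SE 0.84, edgeR adjusted p = 0.11) without control 3. It turned to -0.07 (SE 0.79) without controls 1 and 2.

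Summed over the libraries of each group, start 6 took the most counts in VNS and control hippocampus alike. In VNS 1, VNS 3 and control 2, starts 1 and 4 each took more counts than start 6. NM_001270630 had 56, 42, 2 and 28 counts in VNS libraries 1 to 4, against 3, 12 and 41 counts in controls 1, 2 and 3. This gave 0.830, 2.04, 0.407 and 0.694 CPM in VNS hippocampus, against 0.0611, 0.217 and 0.849 CPM in control hippocampus. Control 3 lay above 3 of the 4 VNS libraries. Its log2 fold change was 1.45 (SE 0.87, edgeR adjusted p = 0.45), with 0.87 without VNS 2, 2.85 without control 3 and 0.28 (SE 0.85) without controls 1 and 2.

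**Figure D3:**
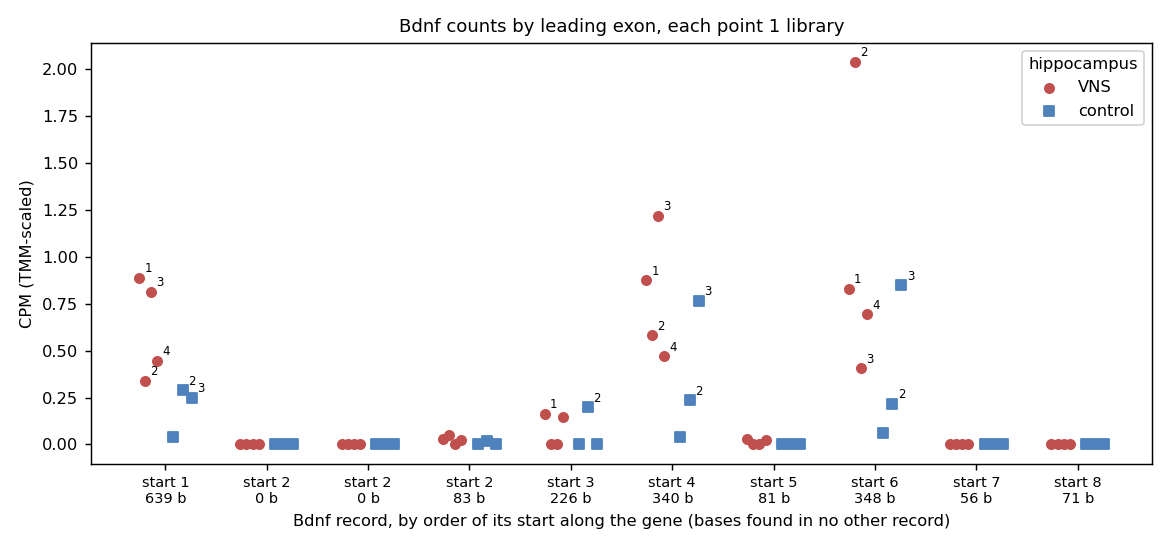
Bdnf CPM by record in the 7 hippocampal libraries, with records in the order of their start sites along the gene and the number of bases each has to itself on the horizontal axis; each point is 1 library, VNS left of control. Starts 1, 4 and 6 carry most counts, and only at start 1 do all VNS points lie above all control points (lowest VNS 0.340, highest control 0.290 CPM).

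The other start sites held few counts. NM_001270635, at start 3, had 11 and 6 counts in VNS 1 and VNS 4, 11 in control 2 and 0 in the other 4 hippocampal libraries. NM_001270631, at start 2, had 4 counts over the VNS libraries and 1 over the controls, and NM_001270638, at start 5, had 3 over the VNS libraries and 0 over the controls. The remaining 4 records had 0 counts in every library. For NM_001270637 and NM_001270632, with 0 bases of their own, this follows from the counting. NM_001270636 and NM_001270634 had 56 and 71 bases of their own, fewer than the 100 bp of a read. A full-length read could not lie within these bases, so the counts of 0 are no measure of absence. NM_001270631 and NM_001270638 had 83 and 81 bases of their own, also fewer than a read. Their few counts are therefore no measure of low use.

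The mix of start sites was alike in VNS and control hippocampus on average, with wide spread. Each library weighed equally in these averages, also control 1 with 7 Bdnf counts and VNS 3 with 12. A shift in the use of start sites could thus be missed. Start 6 made up 38.1 ± 21.7% of Bdnf counts in VNS libraries (n = 4) and 37.0 ± 12.5% in control libraries (SD, n = 3). Start 4 made up 31.6 ± 13.2% in VNS and 31.4 ± 8.65% in control libraries, and start 1 made up 25.2 ± 10.0% in VNS and 24.03 ± 9.30% in control libraries. VNS 2 departed most, with 67.7% of its Bdnf counts at start 6 (95% exact binomial interval 54.7 to 79.1%, which covers counting error only). In control 1 the same interval for start 6 was 9.90 to 81.6%. Per kilobase of unique sequence, start 6 averaged 2.85 CPM in VNS and 1.08 CPM in control hippocampus, start 4 averaged 2.31 CPM in VNS and 1.02 CPM in control hippocampus, and start 1 averaged 0.973 CPM in VNS and 0.302 CPM in control hippocampus.

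Ntf3 could hardly be measured with this counting. Of its 4 records (chr4:225638801-225707719, rn5, reverse strand), NM_001270868 had 38 bases of its own, NM_001270870 had 1, and NM_001270869 and NM_031073 had 0. Its counts were 6 in VNS 2 (0.291 CPM) and 0 in the other 3 VNS libraries and in all 3 controls. For these bases alone, a count of 0 allowed up to 0.0444 to 0.610 CPM in those libraries. They are shorter than the 100 bp of a read, so a count of 0 does not bound the level of the gene. A read aligned over its full length and counted there also ran into bases outside the exons of these records. Whether the 6 counts came from spliced Ntf3 RNA was not tested. The gene itself was not tested between the groups.

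Ntrk2 was the most abundant of the 5 genes and its records separate 2 forms of the receptor. The longer record, NM_012731, has 18 exons (chr17:8156432-8464507, rn5, reverse strand), and its unique 2696 bases lie in exons at the 3' end. The shorter record, NM_001163168, has 13 exons (chr17:8335391-8464522, reverse strand) and ends in an exon of its own, with 4862 unique bases in 1 stretch. Full-length TrkB carries an intracellular tyrosine kinase encoded towards the 3' end of the gene, whereas truncated TrkB, made by astrocytes and also by neurons, lacks the kinase.

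The longer record had 125.9, 130.3, 111.0 and 115.7 CPM in VNS libraries 1 to 4, against 119.4, 104.4 and 130.4 CPM in controls 1, 2 and 3. VNS and control values were interleaved, with both highest values near 130 CPM. The means were 120.7 ± 8.89 CPM in VNS hippocampus (n = 4) and 118.1 ± 13.1 CPM in control hippocampus (SD, n = 3), and the log2 fold change was 0.03 (SE 0.13, edgeR adjusted p = 0.93). It was -0.12 (SE 0.19) without controls 1 and 2, and also below 0 without VNS 2 (-0.01) or without control 2 (-0.05).

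The shorter record had 306.6, 371.1, 567.6 and 332.2 CPM in VNS libraries 1 to 4, against 282.3, 411.2 and 379.0 CPM in controls 1, 2 and 3. VNS 3, the library with the most ribosomal RNA, was the highest and the other 3 VNS libraries lay within the range of the controls. The means were 394.3 ± 118.5 CPM in VNS hippocampus (n = 4) and 357.5 ± 67.1 CPM in control hippocampus (SD, n = 3). The log2 fold change was 0.14 (SE 0.25, edgeR adjusted p = 0.81), and it turned to -0.09 without VNS 3 and to -0.01 without control 1. The part of the ribosomal RNA share in the value of VNS 3 was not tested.

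Summed over both records, Ntrk2 had 432.4, 501.3, 678.5 and 447.9 CPM in VNS hippocampus, against 401.6, 515.6 and 509.4 CPM in control hippocampus. For the sum the log2 fold change was 0.12 (SE 0.20, edgeR adjusted p = 0.80), 0.00 (SE 0.27) without controls 1 and 2, and -0.05 without VNS 3. Per kilobase of unique sequence the shorter record exceeded the longer one in all 7 libraries, at 80.9 ± 24.3 against 44.8 ± 3.30 CPM in VNS hippocampus and 73.3 ± 13.8 against 43.8 ± 4.85 CPM in control hippocampus (SD). The ratio of the longer to the shorter record per kilobase was 0.743, 0.635, 0.354 and 0.630 in VNS libraries 1 to 4, against 0.765, 0.459 and 0.623 in controls 1, 2 and 3. The ratio averaged 0.590 ± 0.166 in VNS hippocampus and 0.616 ± 0.153 in control hippocampus (SD, n = 4 and n = 3), a difference smaller than either SD.

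**Figure D4:**
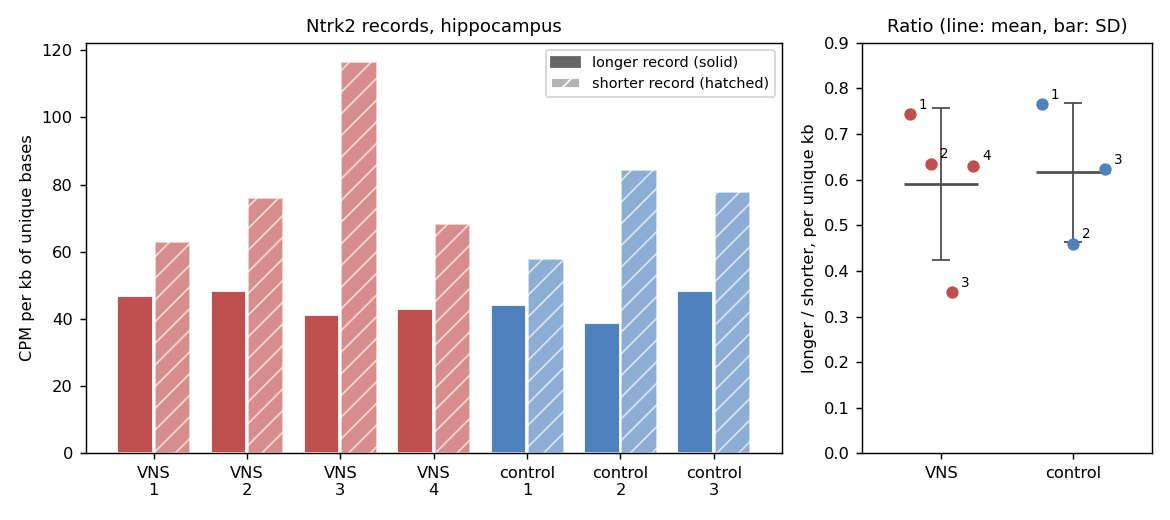
Left, CPM per kilobase of unique bases for the longer (solid bars) and shorter (hatched bars) Ntrk2 record in each hippocampal library, VNS left of control; right, the ratio of the longer to the shorter record, with each point 1 library, lines for means and bars for SD. The shorter record is higher in every library, and VNS 3 has the lowest ratio at 0.354.

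Astrocyte markers, which bear on the truncated form, summed to 2404 to 3185 CPM in VNS libraries and 2354 to 2606 CPM in controls over 10 genes with a record. Most of the sum came from Gfap, Gja1 and Aldoc together in every library. Single markers went different ways in VNS 3, which had the highest CPM of the shorter record. There Gfap, an astrocyte filament protein, was the lowest of the VNS libraries at 754.6 CPM, and Gja1, an astrocyte gap junction protein, was the highest of all 7 hippocampal libraries at 677.3 CPM. Aqp4 and Slc1a3, which also have several records, were at 0 in every library. The part of astrocyte RNA in the Ntrk2 values was not tested.

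Ntrk3 could be read through a 75-base exon only (chr1:140902476-140902550, rn5), which is present in NM_001270656 and absent from NM_001270655 and NM_019248. The other bases of the gene (chr1:140868263-141239954, reverse strand) are shared between its records. The exon is shorter than the 100 bp reads, and reads touching a shared exon went uncounted. A read aligned over its full length and counted there thus also ran into bases outside the exons of these records. Whether the counts came from spliced Ntrk3 RNA was not tested. That exon had 21, 8, 6 and 3 counts in VNS libraries 1 to 4, against 4, 13 and 11 counts in controls 1, 2 and 3. As CPM these were 0.311, 0.388, 1.22 and 0.0743 in VNS hippocampus, against 0.0815, 0.236 and 0.228 in control hippocampus. VNS 3 was the highest on 6 counts, VNS 4 was the lowest, and the groups overlapped. The log2 fold change was 1.06 (SE 0.90, edgeR adjusted p = 0.58), with 0.46 without VNS 3 and 0.74 (SE 1.42) without controls 1 and 2.

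Ngfr had a lower mean in VNS hippocampus that rested on 1 control library. NM_012610 (chr10:83198411-83216629, rn5, reverse strand, 6 exons) shares no base with another record, so its whole length was counted. It had 70, 32, 4 and 64 counts in VNS libraries 1 to 4, against 235, 85 and 46 counts in controls 1, 2 and 3. As CPM these were 1.04, 1.55, 0.813 and 1.59 in VNS hippocampus, against 4.79, 1.54 and 0.953 in control hippocampus. Control 1 stood above the other 6 libraries, and controls 2 and 3 lay within the VNS range. The means were 1.25 ± 0.38 CPM in VNS hippocampus (n = 4) and 2.43 ± 2.06 CPM in control hippocampus (SD, n = 3), with a log2 fold change of -0.91 (SE 0.56, edgeR adjusted p = 0.46). It was 0.04 (edgeR adjusted p = 0.98) without control 1 and 0.43 (SE 0.64) without controls 1 and 2.

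Markers of cholinergic neurons were also high in control 1. Whether they came from the basal forebrain cells that carry p75 was not tested. The 7 markers with a record summed to 50.6 to 58.4 CPM in VNS libraries, against 153.6, 133.7 and 45.9 CPM in controls 1, 2 and 3. Most of that sum was acetylcholinesterase, Ache, at 48.6 to 56.8 CPM in VNS libraries, against 129.9, 130.5 and 43.1 CPM in controls 1, 2 and 3. Chat, which makes acetylcholine and defines cholinergic neurons, had 0.193, 0.0971, 0.407 and 0.0991 CPM in VNS libraries 1 to 4, against 3.60, 0.0725 and 0.0414 CPM in controls 1, 2 and 3. Slc5a7, the choline transporter, had 1.27, 0.728, 0.813 and 0.991 CPM in VNS hippocampus, against 8.61, 2.83 and 1.70 CPM in control hippocampus. Control 1 was the highest library in both of these genes and in Ngfr. Among the 7 markers, Gbx1 was highest in VNS 4 (0.471 CPM, against 0.143 CPM in control 1), Ache in control 2, and the others in control 1. Control 1 was also the highest library in the summed thalamic and brainstem, striatal and oligodendrocyte markers, so this was not particular to cholinergic markers. The part of cholinergic RNA in the Ngfr values was not tested.

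**Figure D5:**
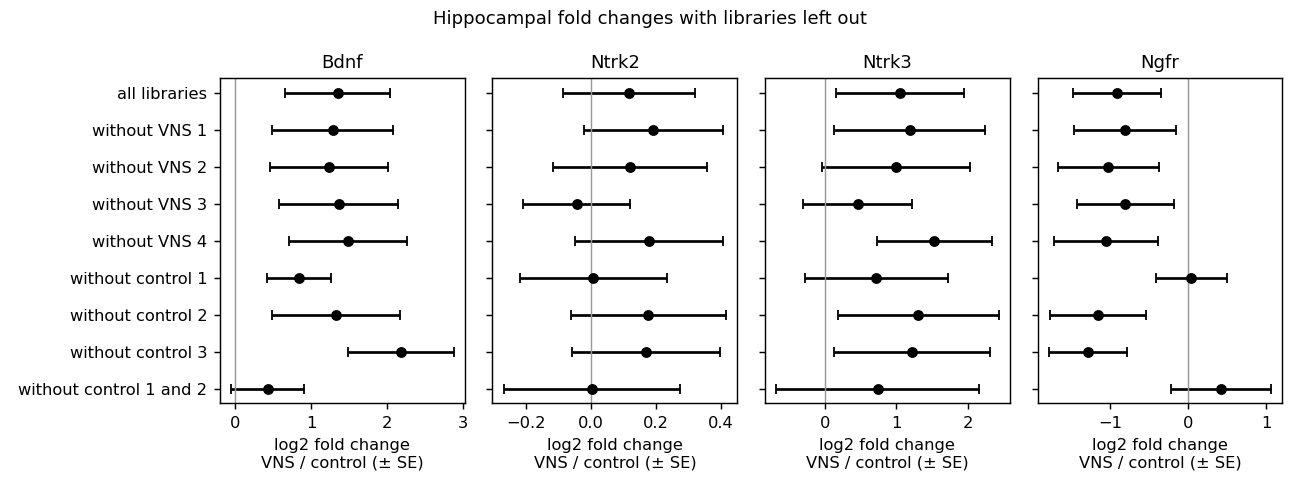
Log2 fold change (VNS over control, horizontal axes, each on its own scale) of the 4 tested genes in hippocampus, with all libraries and with libraries left out (rows); points are edgeR estimates and bars 1 SE. Bdnf stays above 0 in every row but ranges from 0.42 to 2.18, and Ngfr is at 0.04 without control 1, against -0.91 with all libraries.

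Per kilobase of unique sequence the order of levels in VNS hippocampus was the shorter Ntrk2 record, the longer Ntrk2 record and Ngfr at 0.383 ± 0.118 CPM (SD, n = 4). In control hippocampus Ngfr averaged 0.745 ± 0.634 CPM per kilobase (SD, n = 3). Bdnf averaged 1.37 ± 0.29 CPM in VNS and 0.536 ± 0.467 CPM in control hippocampus per kilobase (SD, n = 4 and n = 3). These Bdnf values were divided by the 1844 unique bases of all its records together. A Bdnf transcript carries 1 of the leading exons only, so this divisor is too long for any of them and Bdnf was not ranked against Ngfr. The Bdnf values also do not cover the coding exon, and Ntrk3 and Ntf3, read over 75 and 39 bases, were left out of the order.

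The genes whose log2 CPM followed each member most closely over the 7 hippocampal libraries were found among 11901 genes by Pearson's r. For Bdnf these were Zer1 (r = 0.99), Scn2a (r = 0.99), which encodes a neuronal sodium channel, and Pdzd4 (r = 0.99). Scn2a averaged 505.2 CPM in VNS hippocampus, against 154.6, 316.2 and 498.3 CPM in controls 1, 2 and 3, the same order of controls as Bdnf. For Ntrk2 they were Fig4 (r = 0.99), Gli3 (r = 0.98) and Atg9b (r = 0.97), and for Ntrk3 they were Cdk8 (r = 0.99), Chic2 (r = 0.97) and Fmod (r = 0.96). For Ngfr they were Tfeb (r = 0.995), Dlst (r = 0.99) and Rcsd1 (r = 0.99). Rcsd1 averaged 2.77 CPM in VNS hippocampus, against 21.8, 3.19 and 1.86 CPM in controls 1, 2 and 3. These r values describe 7 points that share the composition differences given above, and the closest of many genes are high by choice.

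The other genes of the pathway are given by list. Their fold changes include controls 1 and 2, and none is given without them. As for all 12626 symbols, 0 passed the threshold in hippocampus (0%), and directions within the lists were mixed. Among 8 other neurotrophins and receptors 7 were tested, 5 with a log2 fold change above 0 and 2 below, with a median of 0.36, where 49.3% of all symbols lay above 0. Ntf4, the other TrkB ligand, had at most 11 counts in a library and was not tested. Sorcs1, a sorting receptor of the sortilin family, had 21.0, 24.8, 22.2 and 25.97 CPM in VNS hippocampus, against 34.5, 53.3 and 28.4 CPM in control hippocampus (log2 fold change -0.72, SE 0.22, edgeR adjusted p = 0.40). Its groups did not overlap, as held for 9.29% of all symbols, 4.69% with VNS higher and 4.6% with VNS lower. Sorcs3, of the same family, had 66.1, 66.2, 58.7 and 50.5 CPM in VNS hippocampus, against 45.7, 29.9 and 54.2 CPM in control hippocampus, with control 3 among the VNS values.

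Of 9 tested genes for processing and secretion of the precursors, 6 had a log2 fold change above 0 and 3 below, with a median of 0.11. Furin, a protease that cleaves the precursors, had 51.7, 49.0, 50.2 and 46.5 CPM in VNS hippocampus, against 39.4, 33.0 and 41.7 CPM in control hippocampus. Every VNS library was above every control, as held for 4.69% of all symbols, with a log2 fold change of 0.38 (SE 0.12, edgeR adjusted p = 0.40). Plat, the activator of plasmin, had 32.3 to 41.8 CPM in VNS libraries and 37.9 to 63.8 CPM in controls.

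Of 27 tested Trk adaptors and effectors, 10 had a log2 fold change above 0 and 17 below, with a median of -0.05. The groups did not overlap for 3 of the 27 (Shc1, Pik3ca and Map2k2), beside 9.29% of all symbols. Pik3ca, a catalytic subunit of PI3-kinase, had 54.3, 52.6, 44.7 and 44.1 CPM in VNS hippocampus, against 87.2, 65.1 and 61.0 CPM in control hippocampus (log2 fold change -0.54, SE 0.16, edgeR adjusted p = 0.40). Gab1, a docking protein, had 39.2 to 72.1 CPM in VNS libraries and 55.3 to 97.9 CPM in controls.

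All 11 genes of the list of p75 partners and effectors were tested, 8 with a log2 fold change above 0 and 3 below, with a median of 0.20. Ripk2, a kinase that binds p75, had 9.24, 9.52, 10.4 and 7.88 CPM in VNS hippocampus, against 14.1, 12.0 and 10.7 CPM in control hippocampus (log2 fold change -0.41, SE 0.16, edgeR adjusted p = 0.40). Its groups did not overlap, beside 4.6% of all symbols with VNS lower. Slitrk5, a membrane protein that binds TrkB, had 80.6 to 129.5 CPM in VNS libraries, against 25.6, 53.7 and 90.1 CPM in controls 1, 2 and 3. It is counted in this list though TrkB is not p75, and had the list's highest log2 fold change at 0.87.

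Of 12 tested regulators of Bdnf transcription, 8 had a log2 fold change above 0 and 4 below, with a median of 0.09. Mef2d, a transcription factor regulated by calcium, had 77.6, 80.4, 102.5 and 76.6 CPM in VNS hippocampus, against 47.4, 45.0 and 72.2 CPM in control hippocampus (log2 fold change 0.62, SE 0.20, edgeR adjusted p = 0.40). Its groups did not overlap, beside 4.69% of all symbols with VNS higher. Crtc1, a coactivator of CREB, had 72.5, 63.4, 113.0 and 89.4 CPM in VNS hippocampus, against 27.7, 29.4 and 66.5 CPM in control hippocampus (log2 fold change 1.03, SE 0.35, edgeR adjusted p = 0.40). Control 3 lay among the VNS values of Crtc1, and controls 1 and 2 lay under all of them. Genes with an unadjusted p under 0.05 numbered 1 of 7, 1 of 9, 3 of 27, 1 of 11 and 2 of 12 in these lists, in the order given, beside 12.1% of all symbols.

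In cortex few or no counts were found for the members other than Ntrk2. Cortex libraries held 329130 to 435296 counts. Of cortex counts, 35.5% lay in the 3.79% of records that overlap a record on the opposite strand, against 9.58% of hippocampal counts. Cortex values here thus need not be levels of the gene whose name they carry. Of 3884 records tested, 1 passed (0.0257%), and it was no record of these genes. Ntf3, Ntrk3 and Ngfr had 0 counts in all 8 libraries, and Bdnf had 4 counts in VNS 1, from start 1, and 4 in control 3, from start 3.

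The Ntrk2 records alone could be tested in cortex. The longer record had 2, 9, 18 and 2 counts in VNS libraries 1 to 4, against 18, 12, 10 and 10 counts in controls 1 to 4 (log2 fold change -0.74, SE 0.60, edgeR adjusted p = 0.99975). It was -1.50 (SE 0.70, edgeR adjusted p = 0.99939) without VNS 3, -0.44 without VNS 1, and -0.41 without VNS 4 or without control 1. The shorter record had 63, 76, 65 and 64 counts in VNS libraries, against 59, 93, 49 and 61 counts in controls, with a log2 fold change of 0.04 (SE 0.23, edgeR adjusted p = 0.99975). The groups overlapped for both records, as they did for all but 2.29% of cortex records. The shorter record, with 4877 unique bases against 2696, had more counts than the longer one in every cortex library. Because of the strand limit given above, these counts were not read as levels of the receptor forms.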

How the data were processed

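The authors deposited 1 table of raw counts per tissue, with a row for each RefSeq transcript record. They were made with featureCounts 1.4.6-p2 on rn5 records, per the file headers, with strand option 1 for cortex and none for hippocampus. No option for read pairs is in the headers, so each 100 bp mate counted on its own, and reads touching several records went uncounted. Per the labels the kit was a stranded TruSeq kit. Tools in the submitters' processing notes were Bowtie2, Trimmomatic, edgeR, Subread, FastQC 0.10.1 and SAMtools 0.1.19.

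RefSeq's gene table for GRCr8 gave symbols, and no coordinates, to 17339 of 18278 records. Promoters are RefSeq's, and were matched to the records by equal spacing of the start sites. Tests were run with edgeR 4.0.16 in R 4.3.3 (filterByExpr with a minimum count of 10 and total of 15, TMM, glmQLFit and glmQLFTest, two-sided, Benjamini-Hochberg adjustment over all features, threshold 0.05), per record and, in hippocampus, per symbol. SE is the absolute log2 fold change divided by the square root of F. CPM uses TMM-scaled library sizes. The fits were tested on simulated data.

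Alternatives were DESeq2 1.42.0, limma-voom (limma 3.58.1), other scalings and filters, and libraries left out. Members, lists and tests were chosen with earlier results of these data known. Named beside the members were Ntf4, the 2 genes of each pathway list with the smallest p, from marker lists the 2 with the highest CPM, and the 3 genes most like each member. Single values of some genes of the list of other neurotrophins and receptors are not reported here. Neurod6, Chat, Gbx1, Gja1, Shc1 and Map2k2 were named after their values were seen. The summed marker values not given with the results were 250.9 to 436.2 CPM in VNS and 73.6 to 304.5 CPM in control hippocampus for dentate granule cells, 854.4 to 1563 in VNS and 283.3 to 1046 in control for CA pyramidal cells, 2122 to 5009 in VNS and 4379 to 7953 in control for oligodendrocytes, 169.9 to 262.3 in VNS and 227.2 to 292.1 in control for endothelial and mural cells, 38.0 to 72.8 in VNS and 44.1 to 59.1 in control for meningeal cells, and 72.4 to 141.8 in VNS and 105.9 to 269.7 in control for striatal neurons. The column of cortex VNS 1 carries a letter at its end that the sample's label lacks.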

Additional observations from a re-analysis of the deposited data

Results flagged for a closer look

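The longer Ntrk2 record, NM_012731, had a value far from the others in cortex control 1. It stood at 59.0 CPM on 18 counts, while the other 3 cortex controls lay between 28.3 and 32.0 CPM. The gap to its nearest neighbour was 0.881 of the range of the 4 control libraries. This gap exceeded Dixon's 95% critical value for 4 libraries, which by its construction is passed in about 1 of 20 groups. It was the 1 passed among 20 groups of 4 libraries examined, which were member records and gene sums with at least 30 counts in the group and the Ntrk2 record ratios. These groups are not independent, since a gene's sum contains its records.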

How the results depend on the processing

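Under the alternatives run, 0 of 189 refitted member results passed the threshold, and 13 changed sign, in 7 of 13 results. DESeq2 gave no adjusted p for some of them, so these could not pass. Among these were Bdnf NM_012513 and Ntrk3, both as a record and as a gene, in hippocampus. Without hippocampal controls 1 and 2 the log2 fold change was -0.067 for Bdnf NM_001270633, -0.12 for Ntrk2 NM_012731, and 0.43 for Ngfr both as a record and as a gene. With 1 library left out at a time, the hippocampal ranges were -0.049 to 0.11 for Ntrk2 NM_012731, -0.086 to 0.25 for Ntrk2 NM_001163168, -0.045 to 0.19 for Ntrk2, -1.29 to 0.040 for Ngfr as a record and -1.29 to 0.041 as a gene. In cortex Ntrk2 NM_001163168 ranged from -0.025 to 0.14 and Ntrk2 NM_012731 from -1.50 to -0.41. The cause of these changes was not tested.

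Over all features, DESeq2 called 17 hippocampal records and 15 symbols and limma-voom called 0 and 0. With 1 library left out at a time the calls ranged from 0 to 1377 records and 0 to 1359 symbols, the highest without control 3. In cortex 5 records were called with no filter, 6 with a filter of 1 CPM in 3 libraries, 0 with limma-voom and 0 to 4 with 1 library left out. Ntf3 could be fitted only with no filter. No paired analysis was possible because the labels carry no replicate numbers shared between the groups. Depth limits Bdnf, Ntrk3 and Ngfr in VNS 3, where their counts were 12, 6 and 4.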
